A study of Cricetulus griseus with 24 samples.

Results

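Aminoacyl-tRNA synthetases join each amino acid to its transfer RNA. The genes described here were taken by their symbols, as 20 genes for synthetases of the cytosol and 16 genes for synthetases of mitochondria, whose symbols end in 2. These 36 genes were all found among the 26776 gene names of both count tables, and all 36 passed the filter on low counts in both experiments. RNA was counted in 24 libraries from LR73 cells, a line of Chinese hamster ovary origin that the labels call a cultured fibroblast and that engulfs dying cells. Their targets were apoptotic Jurkat cells, a human T lymphocyte leukaemia line. The first experiment held 4 groups of 4 libraries. In one the phagocytes were left alone (control), in another they received cytochalasin D, in the third they were given apoptotic cells, and in the last they had both treatments. The drug blocks the growth of actin filaments and with it engulfment. The second experiment held 4 libraries each of wildtype and Slc12a2-deficient phagocytes, all of which had been with apoptotic cells for 2 h and been sorted for the dye CypHer5E, a mark of cells that had engulfed a target. No group of the second experiment was without apoptotic cells. The Jurkat cells had received 1500 mJ of ultraviolet C light 4 h before use. How Slc12a2, the gene of the NKCC1 chloride cotransporter, was removed, whether the deficient cells were 1 clone, and how long cells were co-cultured in the first experiment were not stated in the labels.

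The cytosolic synthetases charge the transfer RNAs that ribosomes use for nuclear genes, and the mitochondrial synthetases, made from nuclear genes and imported, charge those used for the few proteins encoded by mitochondrial DNA. Gars and Kars are known to make both forms from a single gene. Mitochondria have no glutaminyl synthetase of the usual kind. Ears2 first puts glutamate on that transfer RNA, and an amidase made from Qrsl1, Gatb and Gatc converts it. Several cytosolic synthetases, made from Eprs, Iars, Lars, Mars, Qars, Rars, Kars and Dars, sit together in a multisynthetase complex held by scaffold proteins. When amino acids run short, uncharged transfer RNA activates the kinase GCN2 (Eif2ak4), which phosphorylates eIF2alpha and raises translation of the transcription factor ATF4, and ATF4 switches on many cytosolic synthetase genes, amino acid transporters and enzymes of amino acid synthesis. Mitochondrial synthetase genes are not usually counted among its targets.

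Counted fragments ranged from 8272232 to 18911353 for the 16 libraries of the first experiment, and the 8 of the second held 22758587 to 28450594. Slc12a2 was at 91.2 to 103 CPM in wildtype and 22.4 to 26.2 CPM in deficient libraries (log2 -1.97, SE 0.06, edgeR adjusted p = 1.14e-12). Of 14 fibroblast markers, Vim (2962 to 5420 CPM as group means), Fn1 and P4hb were the most abundant, whereas Col1a1, Col1a2 and Thy1 were at or near 0 in every group. Over the 9 of these markers tested, 1 was higher with apoptotic cells, 2 were lower with apoptotic cells under cytochalasin D, and 1 was higher and 2 lower with cytochalasin D alone. With cytochalasin D in the presence of apoptotic cells 1 was higher and 4 were lower (median log2 -0.42 of the 9), and in deficient cells 2 were higher and 6 lower. Their part in the results was not tested. Of 15 T lymphocyte markers, the summed level was 34.8 to 37.2 CPM in control, 30.8 to 37.1 with cytochalasin D, 42.7 to 46.4 with apoptotic cells and 42.0 to 46.5 with both, and 29.5 to 32.1 in wildtype and 23.2 to 28.0 in deficient libraries. Lck, Zap70 and Lef1 were the 3 of 6 tested T lymphocyte markers called higher with apoptotic cells, from at or near 0 to means of 3.20, 3.35 and 1.68 CPM, whereas Tcf7 and Lat, the largest parts of the sum, had means of 23.7 and 11.0 CPM in control and 23.0 and 11.1 CPM with apoptotic cells. In the second experiment, where all libraries had met apoptotic cells, the mean of Lck was 0.0585 CPM and those of Zap70 and Lef1 were 0 in wildtype. Cd2, Cd3g and Cd5 were at 0 in all 24 libraries. The apoptotic cells were human, whereas the gene names of the counts were matched to a hamster assembly. How much human RNA such counts capture was not tested, so low marker levels do not measure how little of it was present. In deficient cells Tcf7 was higher and Cd28 and Lat were lower, of 3 tested. CPM are counts scaled to a common library size, here with edgeR's TMM factors. TPM also divide by gene length and were used wherever levels of different genes are compared. Values after ± are SD over 4 libraries.

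In phagocytes alone, the cytosolic genes were expressed several times above the mitochondrial ones. In control libraries the 20 cytosolic genes summed to 3144 ± 50.3 TPM and the 16 mitochondrial genes to 614 ± 10.9 TPM, a ratio of 5.12 ± 0.166. Kars, the lysyl enzyme of both compartments, had the highest level at 536 ± 11.2 TPM, followed by Gars, the glycyl enzyme of both compartments, at 307 ± 4.52 TPM. The library ranges of these genes lay apart from each other and from all the rest. Next came the valyl, alanyl and seryl genes Vars (243 ± 16.6 TPM), Aars (229 ± 4.44 TPM) and Sars (224 ± 8.54 TPM), whose library ranges overlapped. Lars (52.8 ± 2.77 TPM) and Mars (54.1 ± 1.04 TPM), for leucine and methionine, were the lowest cytosolic genes and did not differ beyond their spread.

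Among mitochondrial genes, Iars2 for isoleucine (155 ± 3.59 TPM) and Sars2 for serine (126 ± 13.2 TPM) stood above the other 14, which lay between 12.7 ± 0.691 TPM (Lars2) and 48.4 ± 5.11 TPM (Yars2). For 13 amino acids both a cytosolic and a mitochondrial gene were present. Isoleucine was the 1 pair in control libraries with the mitochondrial gene higher, with a ratio of cytosolic to mitochondrial TPM of 0.661 ± 0.0267. The other 12 ratios ran from 1.80 ± 0.190 for serine to 12.6 ± 1.05 for alanine. In wildtype engulfing phagocytes the isoleucine ratio was 0.761 ± 0.0430, and the methionine ratio was 0.934 ± 0.0418, against 1.95 ± 0.0603 in control libraries of the other experiment.

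**Figure D1:**
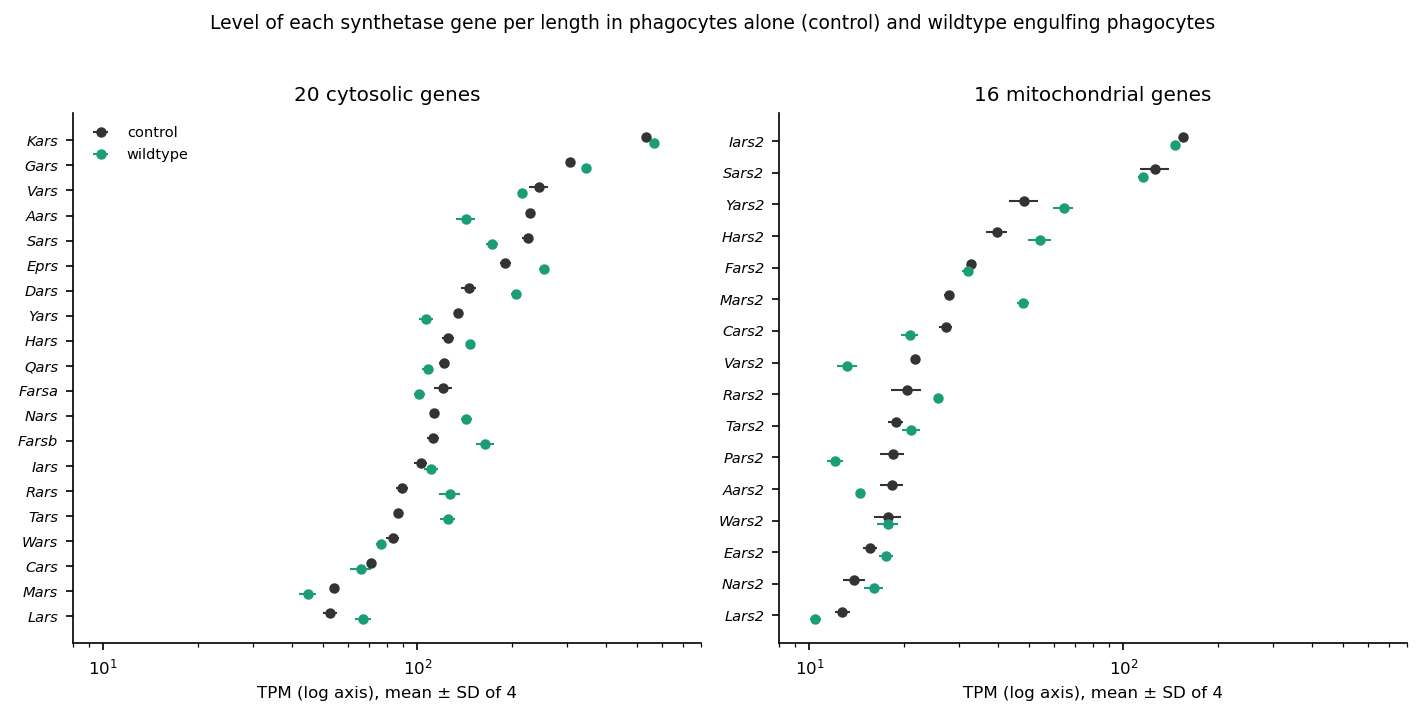
Mean level of each gene in TPM (log axis, bars ± SD of 4 libraries) in phagocytes alone (control, dark) and wildtype engulfing phagocytes (green), cytosolic genes on the left and mitochondrial on the right. Kars was highest at 536 TPM in control, and only Iars2 and Sars2 of the mitochondrial genes exceeded 100 TPM there.

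With apoptotic cells, 6 of 20 cytosolic genes fell and none rose, by small amounts, while the mitochondrial gene Sars2 rose. Of all 13106 genes tested, 6.97% were called higher and 6.68% lower at an edgeR adjusted p under 0.05, so the share of cytosolic genes called lower lay above the background of lower calls. That background holds genes of all levels, and none of matched level was made. The lowest cytosolic mean was 82.1 CPM (Mars with apoptotic cells), and smaller changes can be called at such levels. Gars was called at log2 -0.12 (SE 0.04), but the mitochondrial Tars2 at -0.18 (SE 0.08) was not. The fallen genes were Aars, Cars, Gars, Iars, Nars and Yars, for alanine, cysteine, glycine, isoleucine, asparagine and tyrosine. The median log2 change was -0.05 over the cytosolic genes, with 16 of 20 below 0, and 0.00 over all genes tested, with 49.3% below 0. In bulk RNA, fewer cells of a type and less RNA per cell cannot be told apart, and Lck, Zap70 and Lef1, 3 of the 6 tested T lymphocyte markers, were higher in the libraries with apoptotic cells. Their part in these results was not tested.

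Aars was at 431, 452, 438 and 452 CPM in control and 349.5, 339.8, 358 and 358 CPM with apoptotic cells (log2 -0.34, SE 0.03, edgeR adjusted p = 2.38e-07). Cars was at 109, 106, 108 and 108 CPM in control and 86.5, 84.1, 87.9 and 83.1 CPM with apoptotic cells (log2 -0.33, SE 0.04, edgeR adjusted p = 1.78e-05). For both genes every library with apoptotic cells lay below every control library. Nars was at 135, 133, 137 and 140.3 CPM in control and 123, 108, 126 and 110.1 CPM with apoptotic cells (log2 -0.22, SE 0.05, edgeR adjusted p = 0.00642). Yars was at 202, 210.0, 203 and 201 CPM in control and 176, 158, 182 and 183 CPM with apoptotic cells (log2 -0.22, SE 0.04, edgeR adjusted p = 0.00107). Their groups did not overlap either, although single libraries with apoptotic cells came closer to control than for Aars. Iars changed by log2 -0.17 (edgeR adjusted p = 0.00459) and Gars by -0.12 (edgeR adjusted p = 0.0261). The call of Gars was lost without apoptotic library 2 or control library 2 (edgeR adjusted p up to 0.0776).

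All 6 belong to the 13 cytosolic genes commonly listed as ATF4 targets, in which 12 of 13 values were below 0 (median log2 -0.12). The list holds 13 of the 20 cytosolic genes and was set with earlier results of these data known, so such counts are no test. None of the other 7 cytosolic genes passed the test (median -0.02). In the multisynthetase complex, Iars was the 1 of 8 genes called, and none of the 3 scaffold genes Aimp1, Aimp2 and Eef1e1 was called. The wider list of the amino acid response showed 15 genes lower and 3 higher of 31 tested (median log2 -0.23). Atf4 itself fell from 284 ± 8.38 to 195 ± 6.54 CPM (log2 -0.54, edgeR adjusted p = 1.69e-09). Trib3, a pseudokinase induced by ATF4, changed by log2 -1.05, and Nupr1 and Mthfd2, a stress regulator and an enzyme of mitochondrial folate metabolism, by -0.46 and -0.27. Chac1, a glutathione-degrading enzyme, rose (log2 0.43), as did Ddit4 (log2 0.39) and the transporter subunit Slc3a2 (log2 0.15).

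The mitochondrial genes did not move together. Of 16, Sars2 and Aars2 were called higher and Cars2 lower, counts near the background shares, with a median log2 of 0.02 and 8 of 16 values below 0. Sars2, the seryl enzyme, was at 136, 154, 160.4 and 125 CPM in control and 226, 228, 304 and 245 CPM with apoptotic cells (log2 0.80, SE 0.12, edgeR adjusted p = 9.76e-05), 1.74-fold higher. All 4 libraries with apoptotic cells lay above the highest control library, and the apoptotic library 3 was the highest of the 16. Cars2, the cysteinyl enzyme, was at 28.5, 26.8, 28.5 and 29.6 CPM in control and 21.9, 23.0, 24.3 and 21.5 CPM with apoptotic cells (log2 -0.32, SE 0.09, edgeR adjusted p = 0.0255). Aars2, the alanyl enzyme, was at 40.4, 49.1, 48.9 and 49.2 CPM in control and 58.0, 50.2, 58.8 and 56.0 CPM with apoptotic cells (log2 0.25, SE 0.08, edgeR adjusted p = 0.0456). The groups did not overlap for Cars2 and Aars2, but their calls were weak. That of Aars2 was lost without any 1 control library or apoptotic library 1, 3 or 4 (edgeR adjusted p up to 0.181), and that of Cars2 without control library 1, 3 or 4 or apoptotic library 1 or 4 (up to 0.0785).

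The amino acid pairs shifted unequally. For alanine the cytosolic gene fell and the mitochondrial gene rose, and the ratio of Aars to Aars2 went from 12.6 ± 1.05 to 8.34 ± 0.449. For serine, Sars did not pass the test (log2 -0.02, edgeR adjusted p = 0.851), and the ratio of Sars to Sars2 went from 1.80 ± 0.190 to 1.02 ± 0.114. For cysteine both genes fell, and the ratio was 2.63 ± 0.0946 in control and 2.61 ± 0.109 with apoptotic cells. Among 15 tested genes of mitochondrial translation factors and transfer RNA modification, Mto1, Gfm1 and Mtfmt rose (log2 0.28, 0.11 and 0.30) and none fell. Of 12 tested eIF2 subunits, kinases and exchange factors, Eif2b4 and Eif2b1 rose (log2 0.38 and 0.19), and of 5 tested cytosolic elongation factors Eef1a1 fell (log2 -0.12).

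**Figure D2:**
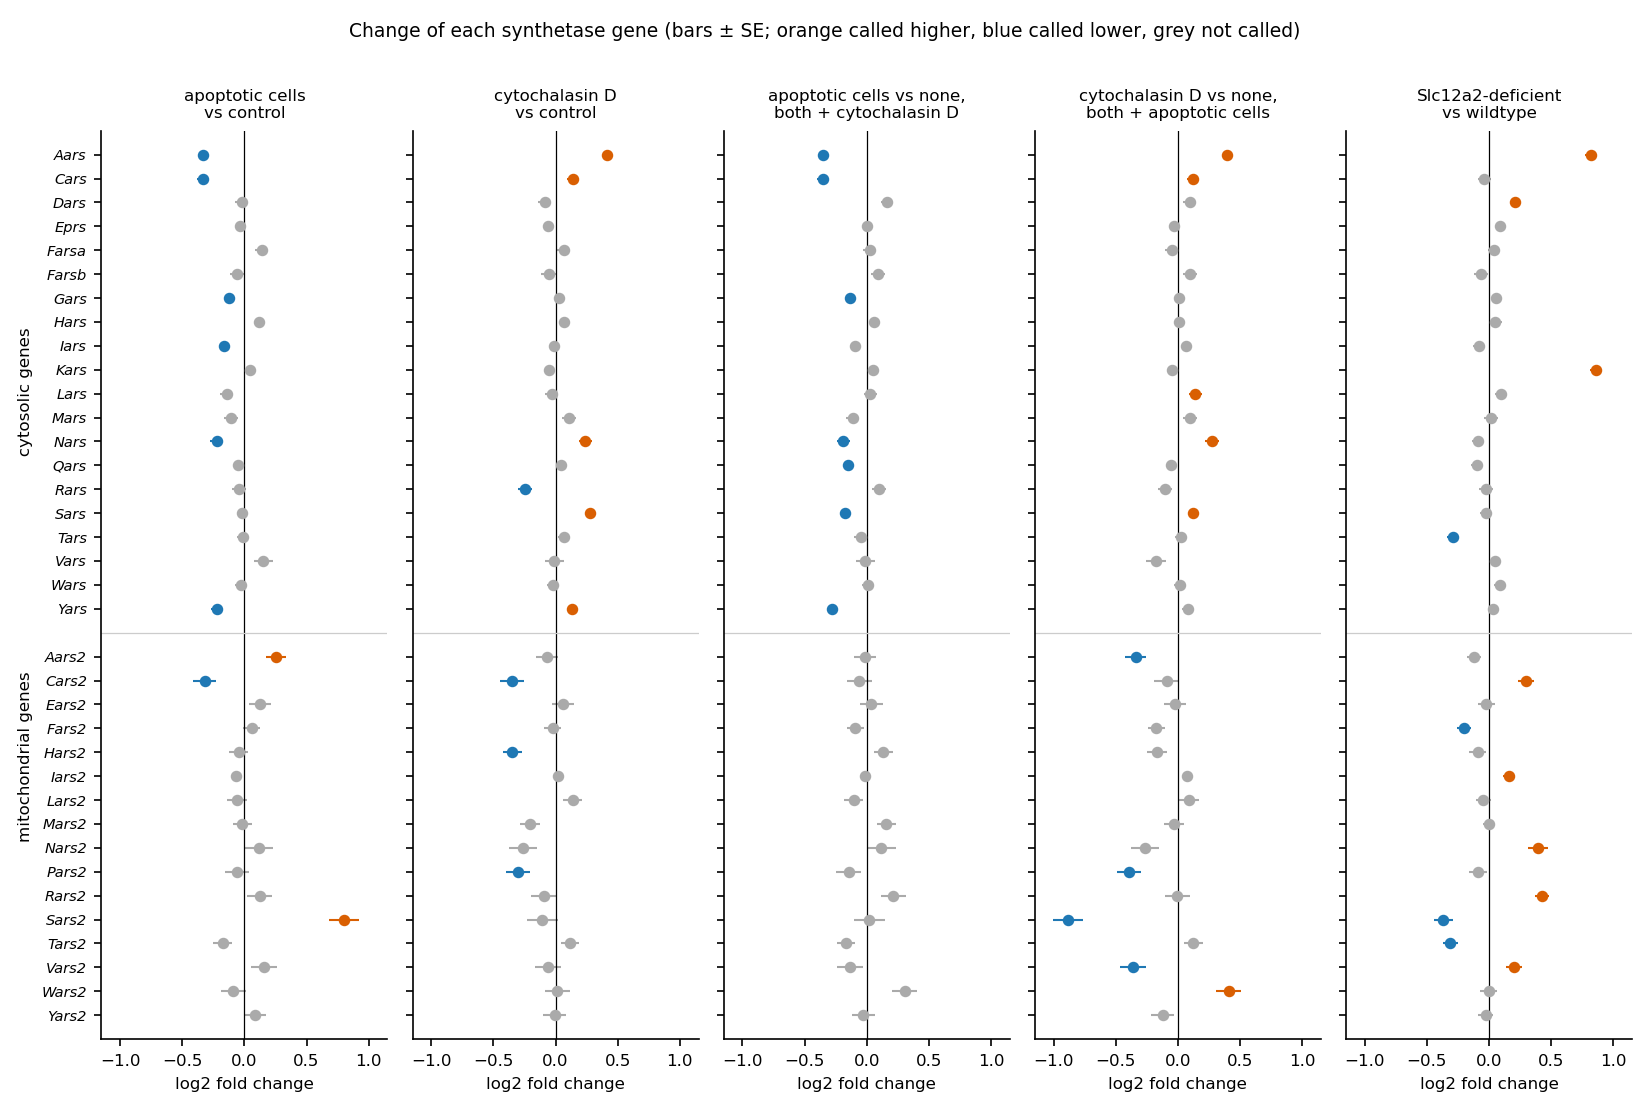
Log2 fold change of each gene (points, bars ± SE) in 5 comparisons, with cytosolic genes above the grey line and mitochondrial genes below. Orange marks an edgeR adjusted p under 0.05 with a higher level, blue with a lower level and grey no call. Aars moved to -0.34 with apoptotic cells and 0.41 with cytochalasin D, and Sars2 to 0.80 with apoptotic cells.

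With cytochalasin D alone, 5 cytosolic genes rose, 1 fell, and 3 mitochondrial genes fell. Over all genes tested 13.5% were called higher and 12.8% lower, so this was a broad response, and the mitochondrial share lay close to that background. The rising cytosolic genes were Aars, Cars, Nars, Sars and Yars, and the falling one was Rars, for arginine. This comparison uses the same control libraries as the one above, so opposite signs in both cannot be read as independent. With library sizes alone in place of TMM factors, the cytosolic calls were 3 higher and 3 lower, and those of all genes 1316 higher and 2252 lower in place of 1772 and 1679.

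Aars was at 602, 592, 591 and 575 CPM with cytochalasin D, above all control libraries (log2 0.41, SE 0.03, edgeR adjusted p = 6.77e-10). Sars was at 245, 246, 268 and 253 CPM in control and 297, 319.7, 318 and 292 CPM with cytochalasin D (log2 0.28, SE 0.04, edgeR adjusted p = 2.5e-05). Nars was at 154, 167, 164 and 159 CPM with cytochalasin D (log2 0.24, SE 0.05, edgeR adjusted p = 0.00128). None of these groups overlapped with control, and the change of Aars was the largest of the 20 cytosolic genes in this comparison. Rars was at 105, 101, 103 and 109.5 CPM in control and 84.7, 86.9, 83.8 and 96.8 CPM with cytochalasin D (log2 -0.25, SE 0.05, edgeR adjusted p = 0.0012). Cars and Yars rose by log2 0.14 and 0.13. Both calls were lost with library sizes alone, that of Cars also with no filter or without cytochalasin D library 1, and that of Yars also without cytochalasin D library 1 or 3 or control library 1, 3 or 4 (edgeR adjusted p up to 0.0604).

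The 5 rising genes were all among the 13 of 20 cytosolic genes commonly listed as ATF4 targets (median log2 0.06), and of the other 7 only Rars was called. As above, the list was set with earlier results known, so this is no test. Aars, Cars, Nars and Yars were also called with apoptotic cells, against the same control libraries. Of the 8 multisynthetase complex genes Rars fell and none rose, and none of its 3 scaffold genes was called. In the wider amino acid response list 10 genes rose and 7 fell of 31. Atf4 rose to 405 ± 11.2 CPM (log2 0.51, edgeR adjusted p = 1.19e-10), Atf3 by log2 2.49, Ddit3 by 1.04 and Trib3, a pseudokinase, by 1.00. In the same list Slc7a5, a leucine transporter, and Psat1, an enzyme of serine synthesis, fell (log2 -0.28 and -0.20). Mars shares 65 exon bases with Ddit3 on the opposite strand, and counting took no account of strand. Its own change was log2 0.11 (edgeR adjusted p = 0.168). The kinases Eif2ak3 and Eif2ak4 rose by log2 0.41 and 0.16, Eif2s1 and Eif2s3 fell, and Eef2 was the 1 elongation factor that rose (log2 0.22).

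The falling mitochondrial genes were Cars2, Hars2 and Pars2, for cysteine, histidine and proline. Cars2 was at 23.3, 24.8, 23.3 and 17.6 CPM with cytochalasin D (log2 -0.35, SE 0.09, edgeR adjusted p = 0.00728). Hars2 was at 37.0, 33.6, 39.7 and 35.1 CPM in control and 26.3, 28.1, 31.0 and 28.8 CPM with cytochalasin D (log2 -0.35, SE 0.08, edgeR adjusted p = 0.00164). Pars2 was at 23.7, 23.0, 26.8 and 27.4 CPM in control and 18.1, 22.1, 21.1 and 20.1 CPM with cytochalasin D (log2 -0.30, SE 0.10, edgeR adjusted p = 0.0241). All 3 groups lay below control without overlap. The call of Pars2 was lost without cytochalasin D library 1 or control library 3 or 4 (edgeR adjusted p up to 0.0732). Sars2 did not pass the test (log2 -0.11, edgeR adjusted p = 0.589), and over the 16 genes the median was -0.07. Of 15 mitochondrial translation genes only Mtrf1l, a release factor, fell (log2 -0.38).

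The effect of apoptotic cells was also measured with cytochalasin D in both groups, in libraries not used above for apoptotic cells. The libraries with cytochalasin D alone are those compared with control above, so a rise there and a fall here cannot be read as independent. Aars, Cars, Nars, Sars and Yars were called in both. Of the cytosolic genes 7 of 20 fell. Of the mitochondrial genes 0 of 16 passed the test in edgeR, against 3 at an unadjusted p under 0.05 and 1 in DESeq2. Most mitochondrial genes had fewer counts and a larger SE, so call counts of the 2 classes cannot be compared directly. Gars was called at log2 -0.14, whereas Rars2 at 0.21 and Wars2 at 0.30 were not. Across all genes 4.82% were called higher and 3.79% lower. The 7 were Aars, Cars, Gars, Nars, Qars, Sars and Yars. Of these, Aars, Cars, Gars, Nars and Yars were also called lower without cytochalasin D, which is 5 of the 6 calls there and 5 of the 7 here. Both sets of libraries come from 1 experiment and 1 fit.

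Aars was at 469.8, 450.2, 463 and 462 CPM with both treatments, against the cytochalasin D values above (log2 -0.36, SE 0.03, edgeR adjusted p = 9.38e-08). Cars was at 122, 119, 118 and 115 CPM with cytochalasin D and 96.2, 85.3, 94.9 and 93.7 CPM with both (log2 -0.35, SE 0.04, edgeR adjusted p = 8.95e-06). Yars was at 227, 218, 227 and 223 CPM with cytochalasin D and 187, 180.3, 187 and 183 CPM with both (log2 -0.28, SE 0.04, edgeR adjusted p = 0.000133). In each case every library with both treatments lay below every library with cytochalasin D alone. Nars was at 148, 128, 147 and 139 CPM with both (log2 -0.19, SE 0.05, edgeR adjusted p = 0.0247), also without overlap. Sars, Qars and Gars changed by log2 -0.17, -0.15 and -0.14. These calls and that of Nars were each lost without 2 to 4 of the 8 libraries (library 2, 3 or 4 with both treatments, library 1, 2 or 3 with cytochalasin D, edgeR adjusted p up to 0.0851). Those of Gars and Qars were also lost in a fit of these 8 libraries alone.

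Of the 13 commonly listed ATF4 targets 6 fell, and Qars was the 1 of the other 7. In the amino acid response list 13 genes fell and 1 rose of 31 (median log2 -0.23), with Atf4 at -0.59 (edgeR adjusted p = 2.41e-10), Trib3 at -1.31, Nupr1 at -0.72 and Sesn2, a leucine sensor, at -0.55. The rising gene was Chac1 (log2 0.27). Of the 8 complex genes Qars fell, and the scaffold genes and elongation factors were not called. Sars2 was at 159.6, 141, 131 and 105 CPM with cytochalasin D and 154, 161, 121 and 107 CPM with both (log2 0.02, SE 0.12, edgeR adjusted p = 0.95), groups that overlapped. Wars2, for tryptophan, had the largest mitochondrial value (log2 0.30, edgeR adjusted p = 0.0616) and was called in DESeq2. Mto1 and Mtrf1l rose among the mitochondrial translation genes (log2 0.34 and 0.43), as did Eif2s1 and Eif2s3 (log2 0.26 and 0.17).

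**Figure D3:**
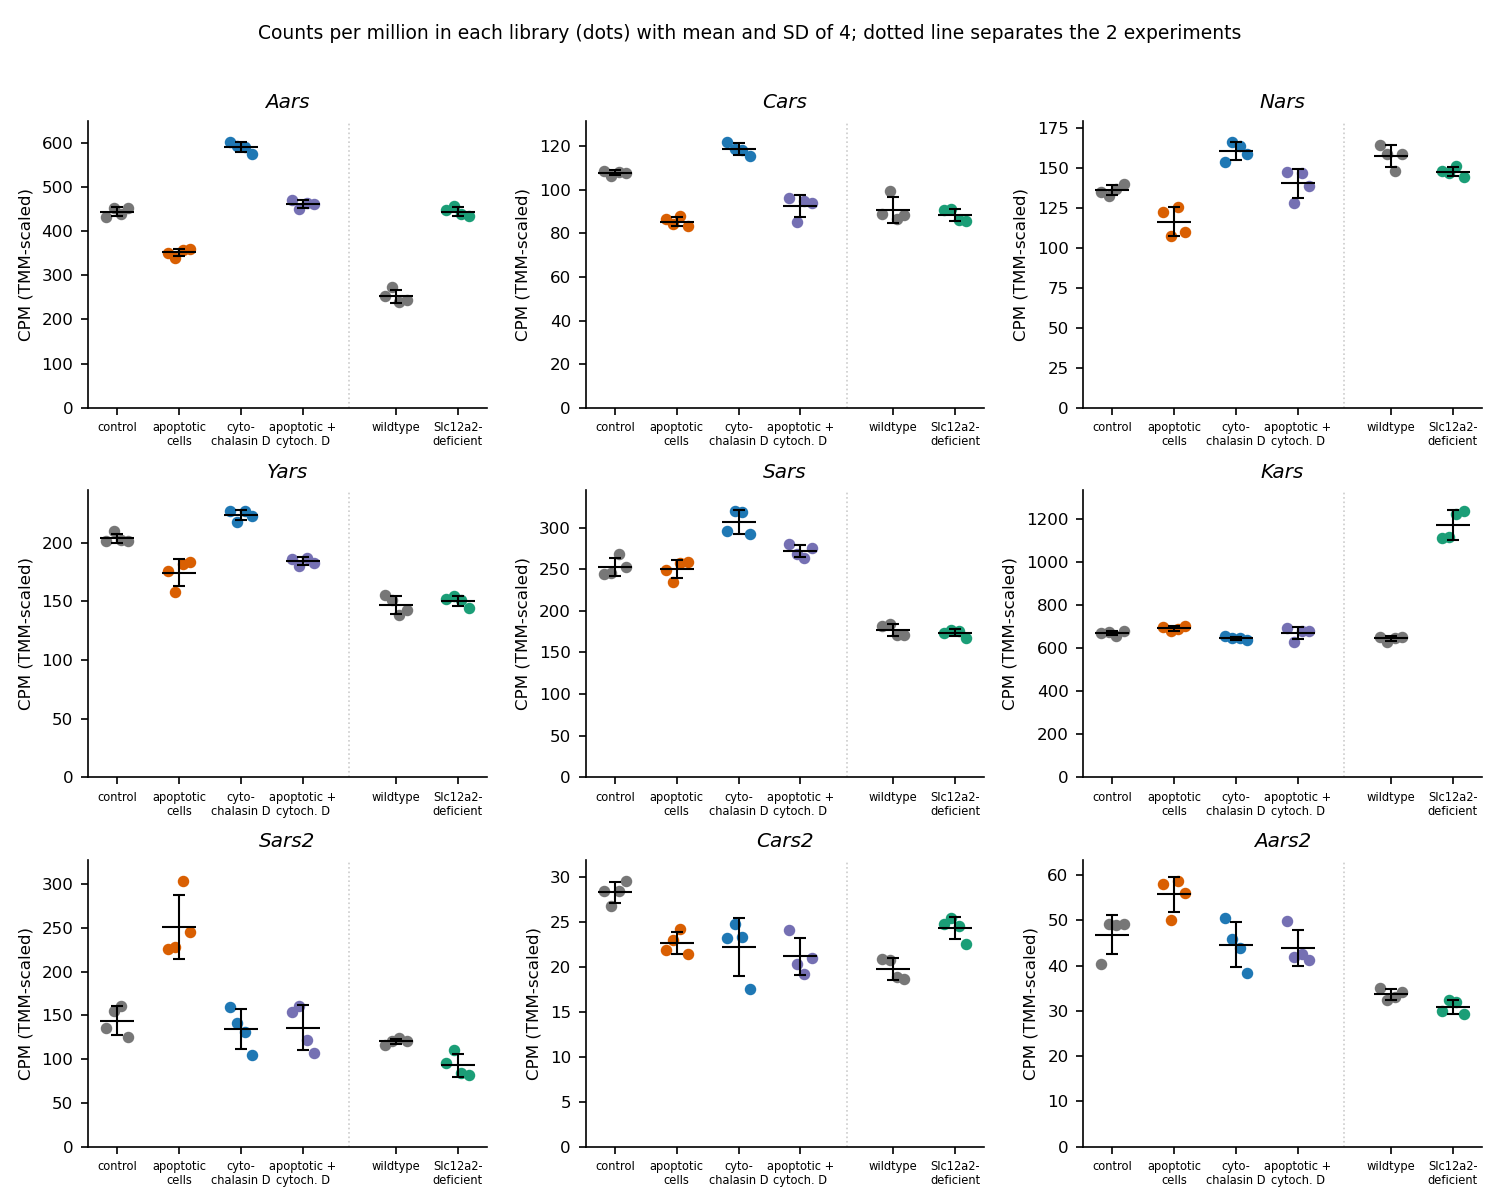
Level of 9 genes in every library (dots, TMM-scaled CPM) with mean and SD of 4, and a dotted line between the experiments. The 4 Sars2 values with apoptotic cells (225.8 to 304 CPM) lie above all 12 others of the first experiment, and the Kars and Aars values of the deficient cells lie above those of wildtype.

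Whether apoptotic cells acted differently when cytochalasin D was present was tested directly, as an interaction over all 16 libraries. Sars2 was the 1 member that passed (log2 -0.78, SE 0.17, edgeR adjusted p = 0.0128), where 3.03% of all genes were called higher and 1.53% lower. Its effect was log2 0.80 without and 0.02 with cytochalasin D. Lck, Zap70 and Lef1, the T lymphocyte markers that rose with apoptotic cells, had means of 3.20, 3.35 and 1.68 CPM without cytochalasin D. With it and apoptotic cells the means were 3.07, 2.96 and 2.47 CPM. The summed level of the T lymphocyte markers was mostly Tcf7 and Lat, also present in control, so it does not measure RNA of the apoptotic cells. The part of such RNA in the Sars2 result was not tested. None of the 20 cytosolic genes passed in edgeR or DESeq2 (3 at an unadjusted edgeR p under 0.05), with a range of log2 -0.17 to 0.18, which does not show that their effects were equal. For Aars the difference was log2 -0.02 (SE 0.05) and for Cars -0.02 (SE 0.06), and for Atf4 -0.05 (SE 0.05). In the other lists Ddit4, an inhibitor of mTORC1 signalling, and Eif2b4 had negative differences (log2 -1.08 and -0.33), and Slc38a2, Eif2s1 and Eif2s3 positive ones (log2 0.43, 0.22 and 0.21). Without cytochalasin D library 4, 2 cytosolic and 3 mitochondrial genes were called.

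Cytochalasin D was also compared with none in the presence of apoptotic cells. Both groups of libraries were used above, so these calls are not independent of the earlier ones. Cytosolic genes rose, 5 of 20, and mitochondrial genes fell, 4 of 16, with 1 rising. All genes gave 16.4% higher and 16.1% lower calls, so neither share was far above background. The rising cytosolic genes were Aars, Cars, Lars, Nars and Sars, of which Aars, Cars, Nars and Sars were also called higher with cytochalasin D alone, 4 of 5 in each comparison. With library sizes alone the cytosolic calls were 2 higher and 3 lower, and those of all genes 1683 higher and 2669 lower in place of 2145 and 2111.

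The Aars values given above did not overlap between these groups (log2 0.39, SE 0.03, edgeR adjusted p = 1.43e-09). The same held for Nars (log2 0.27, SE 0.05, edgeR adjusted p = 0.000314). Lars was at 112, 101, 99.2 and 105 CPM with apoptotic cells and 109, 115, 114 and 122 CPM with both, groups that overlapped (log2 0.14, SE 0.05, edgeR adjusted p = 0.0379). Sars was at 249, 235, 257 and 259 CPM with apoptotic cells and 281, 269, 263 and 275 CPM with both (log2 0.12, SE 0.04, edgeR adjusted p = 0.0323). The calls of Lars, Sars and Cars were each lost without 5 or 6 of the 8 libraries (edgeR adjusted p up to 0.16), and each of the 8 ended at least 1 of these calls. They were also lost with library sizes alone, and Aars and Nars were the 2 cytosolic genes called in every fit that left out 1 library. All 5 rising genes were among the 13 of 20 cytosolic genes listed as ATF4 targets, which is no test, since the list was set with earlier results known. The amino acid response list had 11 genes higher and 5 lower of 31, with Atf4 at log2 0.46 (edgeR adjusted p = 7.1e-10).

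Sars2 fell most of the 36 genes here, from the values with apoptotic cells given above to those with both (log2 -0.89, SE 0.12, edgeR adjusted p = 4.69e-06), and these groups did not overlap. Pars2 was at 22.8, 20.99, 24.4 and 28.2 CPM with apoptotic cells and 18.1, 15.9, 19.3 and 19.8 CPM with both (log2 -0.39, SE 0.10, edgeR adjusted p = 0.00381). Wars2 rose, from 15.1, 18.3, 18.02 and 14.5 CPM to 22.9, 21.2, 20.6 and 22.7 CPM (log2 0.41, SE 0.10, edgeR adjusted p = 0.00303). Neither gene's groups overlapped. Vars2 and Aars2, for valine and alanine, fell (log2 -0.36 and -0.34), with the call of Vars2 lost without library 3 of either group. Pars2 was the 1 mitochondrial gene called lower with cytochalasin D in both settings, 1 of 3 and 1 of 4 calls. Among the mitochondrial translation genes Tufm, Tsfm, Gatc and Mtfmt fell and Mto1 rose, with log2 -0.65 for the amidase subunit Gatc. Eif2ak3 rose and Eif2b1 and Eif2b4 fell of the eIF2 list, and Eef1a1 and Eef2 rose of the elongation factors.

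With apoptotic cells the summed cytosolic level was lower and the summed mitochondrial level higher than in control. The cytosolic sum was 3146, 3119.5, 3098 and 3214 TPM in control and 2965, 2911, 2916 and 2988 TPM with apoptotic cells, without overlap. The mitochondrial sum was 612, 612, 629 and 603 TPM in control and 657, 668, 717 and 679.7 TPM with apoptotic cells, again without overlap but in the other direction. The ratio of the sums went from 5.12 ± 0.166 to 4.33 ± 0.189. Without Sars2 the other 15 mitochondrial genes summed to 488 ± 7.04 TPM in control and 469 ± 3.85 TPM with apoptotic cells. The direction of the mitochondrial sum in TPM thus turned, but the sum without Sars2 was not made in CPM. In the TMM-scaled fit 8 of the 16 mitochondrial genes were below 0 and 8 above (median log2 0.02), so a fall of the others is not shown. The cytosolic sum without Aars and Kars was 2379 ± 38.6 TPM in control and 2233 ± 27.4 TPM with apoptotic cells, still lower without overlap. With cytochalasin D the cytosolic sum was 3137 ± 55.3 TPM and the mitochondrial sum 559 ± 13.9 TPM, and with both treatments 3007 ± 62.5 and 567 ± 15.9 TPM. Without Sars2 the mitochondrial sum with cytochalasin D was 447 ± 6.21 TPM, still below control without overlap. This depended on the unit. In CPM, with Sars2 included, the mitochondrial sum with cytochalasin D overlapped with control (ratio 0.962). The cytosolic sum, which overlapped in TPM, lay above control in CPM (ratio 1.04). The alanine ratio of Aars to Aars2 was 17.6 ± 1.69 with cytochalasin D and 13.9 ± 1.02 with both treatments, and the serine ratio of Sars to Sars2 2.37 ± 0.391 and 2.08 ± 0.401. No test was made of these sums and ratios, since the members were chosen with results known.

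**Figure D4:**
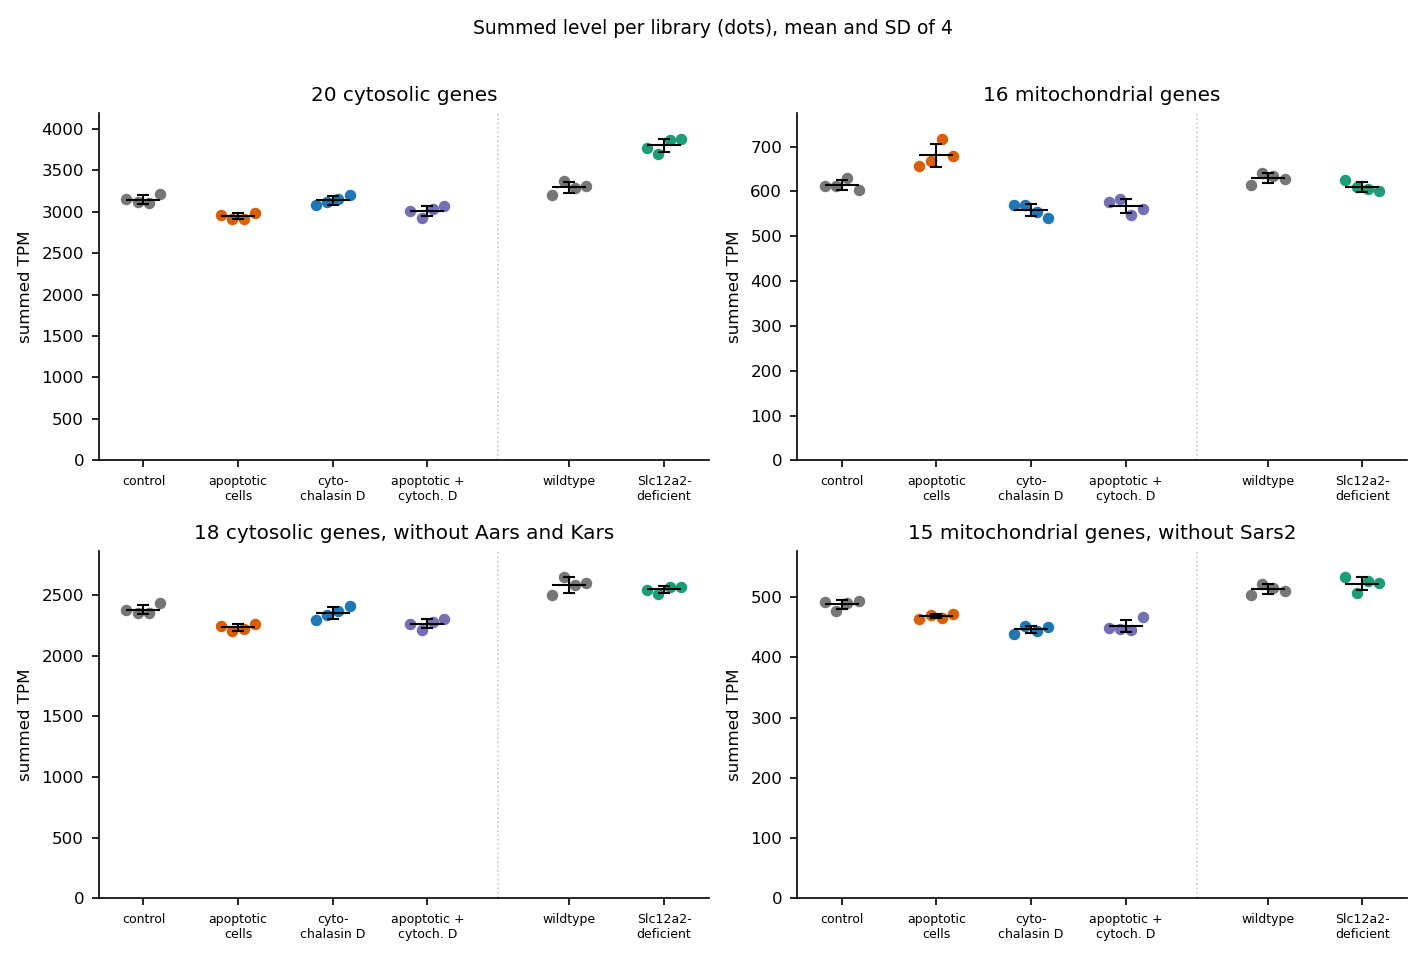
Summed TPM per library (dots) with mean and SD of 4 for the 20 cytosolic and 16 mitochondrial genes (top) and without Aars and Kars or without Sars2 (bottom). Without Sars2 the mitochondrial sum with apoptotic cells lies below control, and without Aars and Kars the 2 genotypes overlap.

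In Slc12a2-deficient phagocytes 2 cytosolic genes, Aars and Kars, stood out. Of 20 cytosolic genes 3 rose and 1 fell, and of 16 mitochondrial genes 5 rose and 3 fell, in a comparison where 21.1% of all genes were called higher and 21.3% lower. The cytosolic shares lay below that background and the mitochondrial shares around it. Medians were 0.04 and -0.02 on the log2 scale. With library sizes alone or upper quartile factors the cytosolic calls were 3 higher and 3 lower. The marker values of both genotypes are given above, and their part in this comparison was not tested.

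Kars was at 652, 628, 645 and 653 CPM in wildtype and 1109.7, 1116, 1225 and 1235 CPM in deficient libraries (log2 0.86, SE 0.05, edgeR adjusted p = 8.02e-10), 1.82-fold higher. Aars was at 252, 273, 238 and 243 CPM in wildtype and 447, 456, 438 and 433 CPM in deficient libraries (log2 0.82, SE 0.05, edgeR adjusted p = 1.97e-09), 1.76-fold higher. For both genes the lowest deficient library lay far above the highest wildtype library. Tars, for threonine, was at 153, 159, 169.6 and 169.6 CPM in wildtype and 129, 131, 133 and 140.1 CPM in deficient libraries (log2 -0.29, SE 0.05, edgeR adjusted p = 0.000187). Dars, for aspartate, was at 235, 239, 249 and 233 CPM in wildtype and 283, 263, 283 and 279 CPM in deficient libraries (log2 0.21, SE 0.04, edgeR adjusted p = 0.000944). Their changes were small beside those of Kars and Aars, but the groups did not overlap. The cytosolic sum was 3203, 3368, 3285 and 3310.4 TPM in wildtype and 3763, 3699.7, 3857 and 3874 TPM in deficient libraries. Without Aars and Kars the other 18 genes summed to 2581 ± 62.5 and 2547 ± 27.6 TPM, groups that overlapped.

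Aars and Kars lie close together in the gene order of the RefSeq assembly CriGri-PICRH-1.0, with 14 tested genes between them. All 14 were called higher in deficient cells (median log2 0.76). In a stretch from Sf3b3 to Terf2ip, whose ends were set after the values were seen, all 20 tested genes other than Aars and Kars were called higher, with a median log2 of 0.83 and a range of 0.22 to 1.46. The spliceosome gene Sf3b3 at one end was at log2 0.58, Pdpr, a subunit of pyruvate dehydrogenase phosphatase, at 1.46, Adat1, a transfer RNA deaminase, at 0.76, and the telomere gene Terf2ip at the other end at 1.05. The 10 tested genes before the stretch had a median log2 of 0.0040, with 2 higher and 2 lower, and the 10 after it 0.00092, with 3 higher and 3 lower. Just outside the ends lay Vac14 at -0.06 and LOC100762614 at 0.10. This is a description with no test, since the ends were chosen on these values.

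The sequence scaffolds of the count tables give a second source for which genes lie together. They were read with the same fold changes, so this is no second measurement. All 10 other tested genes on the scaffold of Kars and both of the others on that of Aars were called higher. In the first experiment, where no group differed by genotype, the stretch had a median log2 of -0.016 with apoptotic cells and 0.065 with cytochalasin D. For the other 34 members the 20 nearest tested genes, 17 for Lars2, had median log2 values of -0.17 to 0.21 between the genotypes. Taken in the same way, the 20 nearest had a median of 0.72 for Aars (16 higher, 1 lower). For Kars it was 0.30 (13 higher, 3 lower), not far above that range. Both of these windows reach past the ends of the stretch.

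**Figure D5:**
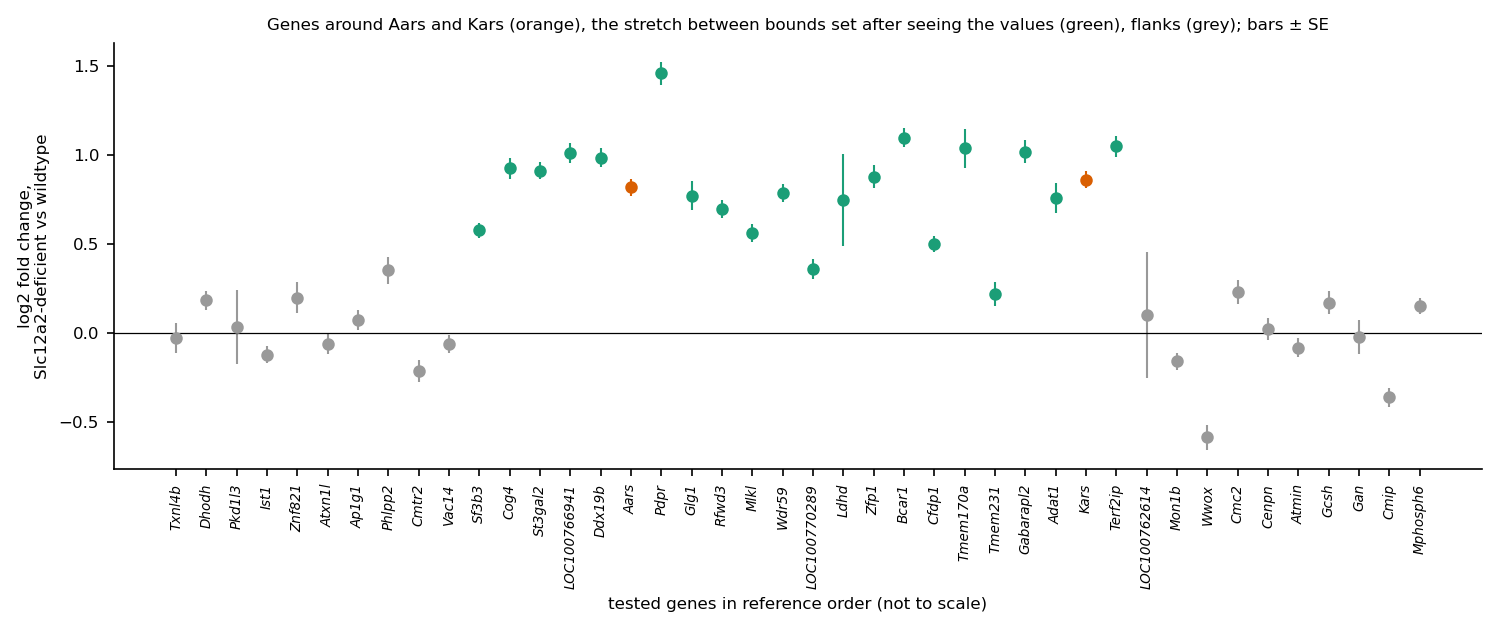
Log2 fold change between Slc12a2-deficient and wildtype cells (points, bars ± SE) of tested genes in reference order, evenly spaced. Aars and Kars (orange) and the other 20 genes of the stretch (green) lie above 0, and the 10 genes on each side (grey) scatter around 0.

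Among the mitochondrial genes, the changes between the genotypes went both ways. Rars2, for arginine, was at 23.6, 24.3, 24.2 and 24.2 CPM in wildtype and 34.9, 30.8, 31.6 and 32.4 CPM in deficient libraries (log2 0.43, SE 0.06, edgeR adjusted p = 2.15e-05). Nars2, for asparagine, was at 17.7, 18.4, 20.7 and 19.3 CPM in wildtype and 25.5, 21.4, 26.9 and 26.5 CPM in deficient libraries (log2 0.39, SE 0.08, edgeR adjusted p = 0.000858). Sars2 was at 116, 120.2, 124 and 121 CPM in wildtype and 95.8, 111, 83.7 and 82.1 CPM in deficient libraries (log2 -0.37, SE 0.08, edgeR adjusted p = 0.00108). In each of these the groups did not overlap, with Sars2 lower and the others higher in deficient cells. Cars2, Vars2 and Iars2 rose by log2 0.30, 0.20 and 0.16, and Tars2 and Fars2 fell (log2 -0.31 and -0.20). Both threonyl genes among the 36, Tars and Tars2, were thus lower, whereas Tarsl2, a threonyl gene outside the 36, rose (below). Tars2 shares 51 exon bases with Rprd2 on the same strand. The call of Vars2 was lost without wildtype library 9 or 10 or deficient library 12 (edgeR adjusted p up to 0.0756) and with upper quartile factors or library sizes alone.

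The amino acid response list did not move in 1 direction between the genotypes, with 6 genes higher and 9 lower of 31. Atf4 changed by log2 0.10 and did not pass the test (edgeR adjusted p = 0.113), though it did without deficient library 11 (edgeR adjusted p = 0.0346). Ppp1r15a, the eIF2alpha phosphatase subunit, Chac1, Atf5 and Ddit3 fell (log2 -1.59, -1.75, -1.25 and -0.64), whereas Nupr1 and Pck2 rose (log2 0.69 and 0.42). Of the 13 listed ATF4 targets among the cytosolic genes Aars rose and Tars fell, and of the 8 complex genes Kars and Dars rose. The scaffold gene Aimp1 rose slightly (log2 0.11). Among mitochondrial translation genes 3 rose, with Tufm, the elongation factor, at log2 0.23, and Trmu and Gtpbp3 fell. Of the eIF2 list 4 genes rose and Eif2ak4, the sensor of uncharged transfer RNA, fell (log2 -0.17). Eef1g and Eef1b2 rose among the elongation factors (log2 0.18 and 0.19), and of 3 tested related genes outside the 36, Tarsl2, a further cytosolic threonyl synthetase, and Dtd1, which removes D-amino acids from transfer RNA, rose (log2 0.46 and 0.35).

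Over the 6 tests, 13 of 20 cytosolic and 12 of 16 mitochondrial genes were called at least once, and so were 68.1% of the 12569 genes tested in both experiments. The 7 cytosolic genes called in none were Eprs, the joined enzyme for glutamate and proline, Farsa and Farsb, the subunits of the phenylalanyl enzyme, and Hars, Mars, Vars and Wars, for histidine, methionine, valine and tryptophan. Their log2 values lay between -0.18 and 0.15. The 4 mitochondrial genes called in none were Ears2, Lars2, Mars2 and Yars2, with log2 values between -0.20 and 0.17. The lowest of these was Mars2 with cytochalasin D (edgeR adjusted p = 0.0577). Aars was called in all 5 comparisons of treatments or genotypes, and no other gene of the 36 was. The comparisons of treatments share the same 4 groups of libraries, so these calls are not independent. Between the genotypes, all 20 other tested genes of the stretch around Aars and Kars were called higher too.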

How the data were processed

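The authors deposited 2 tables of fragment counts per gene name, with the gene's exon length, made by featureCounts 1.5.0 over exons in paired-end mode and without regard to strand, per the file headers. The submitters' processing notes name FastQC, STAR, featureCounts and DESeq2 without versions. The genome build is not given in the sources used here, so no gene positions are printed. Libraries were total RNA read as 75 bp pairs. The labels call the 4 libraries of a group biological replicates and do not name separate cultures, so p-values measure the spread between these libraries.

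The 36 members and all gene lists were chosen with earlier results of these data known. Genes with too few counts were removed with filterByExpr (minimum count 10, minimum total 15), leaving 13106 and 13050 genes. A row with a blank gene name, 0.0249 to 0.0445% of counts in the first experiment and 1.13 to 1.65% in the second, was left out. Each experiment was fitted by itself in edgeR 4.0.16 (R 4.3.3) with TMM factors and the quasi-likelihood F test, over 16 and 8 libraries. P-values were adjusted by Benjamini-Hochberg over all genes tested, and called means below 0.05. SE is the absolute log2 fold change divided by the square root of F. The biological coefficient of variation was 7.04% and 6.06%. In the shallowest library 3 counts correspond to 0.368 CPM.

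Values in every library were given, per comparison, for up to 4 cytosolic and 3 mitochondrial called members with the largest absolute log2 fold change. From each other list up to 4 genes per direction with the smallest adjusted p were named. The lists were the multisynthetase complex and its scaffolds, commonly listed ATF4 targets among the members, the amino acid response, eIF2 factors and kinases, cytosolic elongation factors, mitochondrial translation, related genes and the cell markers. Alternatives were DESeq2 1.42.0, RLE and upper quartile factors, library sizes alone, no filter, an adjusted p under 0.01, fits of the 8 compared libraries, a replicate block, each library left out, and CPM in place of TPM sums. A length-trend offset and sums without single genes were chosen after seeing the data. The fits were tested on simulated data with known changes, and the recovery required there for the difference of effects was lowered after DESeq2, the alternative tool, fell short of it.

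Gene order came from the RefSeq assembly CriGri-PICRH-1.0, to which 21661 gene names and all 36 members matched, 18 of them through current symbols ending in 1. A planned search of promoters for the binding element of ATF4 was not run, and sequences and 1 gene of the lists are not reported here.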

Additional observations from a re-analysis of the deposited data

Results flagged for a closer look

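Of 88 groups of 4 libraries tested with Dixon's ratio at its 95% critical value, which chance passes in about 1 of 20 groups, 5 held a library far from its others. Yars stood at 209.953 CPM in control library 2, above 201 to 203 in the others. Aars2 stood at 40.3631 CPM in control library 1, below 48.9 to 49.2, and at 49.8457 CPM in library 1 with apoptotic cells and cytochalasin D, above 41.4 to 42.5. Vars2 stood at 32.2143 CPM in deficient library 12, above 27.8 to 28.5. Tars2 stood at 22.8141 CPM in deficient library 15, below 25.2 to 25.7.

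The effect of apoptotic cells on Sars2, the mitochondrial seryl synthetase, differed between phagocytes with and without cytochalasin D by log2 -0.781 in the direct test of the difference (edgeR adjusted p = 0.0128). It was the 1 of 36 synthetase genes for which that test passed, and its call held in each fit that left out 1 library.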

How the results depend on the processing

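The lowest member value in any library was 11.9 CPM (Nars2, 162 counts), above the 0.368 CPM that 3 counts stand for in the shallowest library, so depth did not remove a member. DESeq2 and RLE factors kept the call and direction of all 66 gene results examined, and a length-trend offset kept 64 of 66. Cytosolic calls for apoptotic cells, 6, ranged from 5 to 7 when 1 library was left out, and mitochondrial calls, 3, from 1 to 3. The ranges were 4 to 8 and 2 to 4 for cytochalasin D, 4 to 8 and 0 to 1 for apoptotic cells under cytochalasin D, 2 to 4 and 4 to 6 for cytochalasin D with apoptotic cells, 0 to 2 and 1 to 3 for the difference, and 4 to 7 and 7 to 8 for the genotypes, with the 7 cytosolic calls coming without deficient library 12. In all, 15 gene results lost their call without some library, and all were calls of members. The 66 results also hold Atf4, Trib3 and Mrps12 (below) in each of the 6 tests, called or not, so the member calls are fewer than 66.

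At an adjusted p under 0.01, the mitochondrial calls for apoptotic cells fell to 1 and for the difference to 0, and the cytosolic calls to 3 for apoptotic cells under cytochalasin D and 2 for cytochalasin D with apoptotic cells. With library sizes alone, mitochondrial calls were 5 for cytochalasin D and 8 for cytochalasin D with apoptotic cells, and the cytosolic median for cytochalasin D turned to log2 -0.0118. DESeq2 called 1 mitochondrial gene, Wars2, for apoptotic cells under cytochalasin D. The cause was not tested. No scaling moved the median of all genes by over 0.1.

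In CPM the ratio of summed levels was 0.963 for cytosolic genes with apoptotic cells, 1.04 for cytosolic and 0.962 for mitochondrial genes with cytochalasin D, and 1.00 for mitochondrial genes between genotypes. For cytochalasin D against control, the cytosolic groups overlapped in TPM but not in CPM, and the mitochondrial groups in CPM but not in TPM. In TPM, without Sars2 the mitochondrial ratio was 0.960 for apoptotic cells, 0.965 for cytochalasin D with apoptotic cells and 1.02 between genotypes. Without Aars and Kars the cytosolic ratio between genotypes was 0.987. These follow from the genes left out of the sum.

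Replicate numbers of the first experiment gave no pairing in general. Same-numbered libraries correlated at a median of 0.00478, and 4 of 16 libraries correlated best with their own number. The highest values were nonetheless between same-numbered libraries (up to 0.227, against 0.167 for other pairs). Libraries 4 and 1 with cytochalasin D alone and with both treatments gave 0.227 and 0.206. With the replicate block the calls were 7 cytosolic and 2 mitochondrial for apoptotic cells, 6 and 3 for cytochalasin D, 8 and 0 for apoptotic cells under cytochalasin D, 4 and 6 for cytochalasin D with apoptotic cells, and 0 and 1 for the difference. Under it Aars2 with apoptotic cells (edgeR adjusted p = 0.0527) and Cars for cytochalasin D with apoptotic cells (edgeR adjusted p = 0.05004) were no longer called, and Mrps12 was for the difference. For the second experiment no paired fit was made, because its groups share no numbers.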

Other observations

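Mrps12, a protein of the small mitochondrial ribosomal subunit, is the gene next to Sars2 in the reference order and was picked after its values were seen. It was at 35.0, 48.5, 42.9 and 35.5 CPM in control and 69.4, 69.9, 99.7 and 82.2 CPM with apoptotic cells (log2 0.99, SE 0.18, edgeR adjusted p = 0.000801). All libraries with apoptotic cells lay above control, as for Sars2. With cytochalasin D it was at 51.3, 36.2, 32.4 and 27.8 CPM, and with both treatments at 52.3, 52.1, 35.9 and 24.7 CPM (log2 0.17, edgeR adjusted p = 0.671), groups that overlapped. The difference of these effects was log2 -0.82 (edgeR adjusted p = 0.0737), 0.00272 with no filter and 0.0432 with the replicate block, and below 0.05 also without cytochalasin D library 4 or library 1 with both treatments. The 20 nearest tested genes to Sars2 had a median log2 of 0.10 with apoptotic cells.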
